A study of Mus musculus with 3 samples.

Results

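The genes described here make, break down and respond to cyclic AMP and cyclic GMP. They were taken by symbol alone, so guanylyl cyclases under symbols other than Gucy were not included. The symbols were those of the numbered adenylyl cyclases (Adcy), the Gucy guanylyl cyclases and the phosphodiesterase genes named by a number and a letter (Pde). Added to these were the catalytic and regulatory subunits of protein kinase A (Prkac and Prkar) and both cyclic GMP-dependent protein kinases (Prkg1 and Prkg2). This gave 51 of the 32531 gene rows of each table: 10 adenylyl cyclases, 9 guanylyl cyclases, 24 phosphodiesterase genes, 6 protein kinase A (PKA) subunits and 2 cyclic GMP kinases (PKG). The material was cerebral cortex of adult, untreated Kcnip2-EGFP/Rpl10a mice of line NIDA115 on the C57BL/6J strain, profiled by translating ribosome affinity purification (TRAP), in which an antibody to EGFP pulls down tagged ribosomes and the mRNA they carry. The line name ties the tag to Kcnip2, and the cells that carry it are whichever cells use the Kcnip2 regulatory sequences in this line. The 3 libraries form 1 group of immunopurified RNA, with no input or wild-type library beside them, so the values below are levels within the purified RNA and not enrichments. Nothing in the labels ties a replicate to its own animal or pool, and the p-values speak only of the spread among these libraries, which could be technical.

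Cyclic AMP and cyclic GMP are the second messengers that carry signals from many surface receptors, and from nitric oxide, to kinases and channels inside a neuron. Adenylyl cyclases are switched by G proteins and in part by calcium, soluble guanylyl cyclase is the receptor for nitric oxide, and phosphodiesterases end both signals by hydrolysis. PKA is held inactive as a complex of regulatory and catalytic subunits, and cyclic AMP binding to the regulatory subunits frees the catalytic ones to phosphorylate ion channels, receptors and transcription factors such as CREB. In cortex these pathways are known for their part in synaptic plasticity and in the response to dopamine, noradrenaline and other modulators.

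Replicates 1, 2 and 3 contained 11602248, 13635132 and 14174384 gene counts, and the 51 genes took 66634, 78833 and 84959 of them, a share of 0.584% ± 0.0135 (SD, n = 3). Levels are counts per 1000000 (CPM) of the TMM-scaled library size, and levels of different genes are compared as CPM per kb of annotated union exon length unless counts or the longest transcript are named. Defining neuronal markers were abundant: Snap25 was at 33507 ± 2339 CPM, the excitatory marker Slc17a7 at 249.9 ± 47.4 and the inhibitory marker Gad1 at 439.96 ± 45.8 (SD, n = 3). Markers of other cells were present too. All 5 astrocyte markers were at 1 CPM or more and summed to 111 to 187 CPM, the 5 oligodendrocyte markers to 382 to 511, the 3 oligodendrocyte precursor markers to 36.7 to 42.9, the 5 microglial markers to 33.2 to 53.7 with Tyrobp and C1qa under 1 CPM, the 5 mural and smooth muscle markers to 12.9 to 24.1 with Kcnj8 under 1 CPM, and the 4 endothelial markers to 5.88 to 10.3 with Pecam1 under 1 CPM in replicates 2 and 3 and 2 counts of Cldn5 in all. In purified RNA pooled from many cells, fewer cells of a type and less RNA per cell cannot be told apart. With no input library, RNA of untagged cells carried through the pull-down cannot be told apart from these either. The part of these other cells in the levels below was not tested. Where a marker level is given beside a gene, it is a value for comparison and not such a test.

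Detection meant a level of at least 1 CPM in each of the 3 libraries. This held for 36 of the 51 genes, against 37.3% of all rows and 56.4% of the rows matched to a protein-coding gene. The 36 were 7 of 10 adenylyl cyclases, 4 of 9 guanylyl cyclases, 17 of 24 phosphodiesterase genes, all 6 PKA subunits and both PKG genes. Per kb of exon, the 4 highest genes were all PKA subunits. The detected genes ran on that scale from Prkar1a, at 186 ± 19.9 CPM per kb, to Pde3a, which encodes a cyclic GMP-inhibited phosphodiesterase, at 0.140 ± 0.0653 CPM per kb (SD, n = 3).

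**Figure D1:**
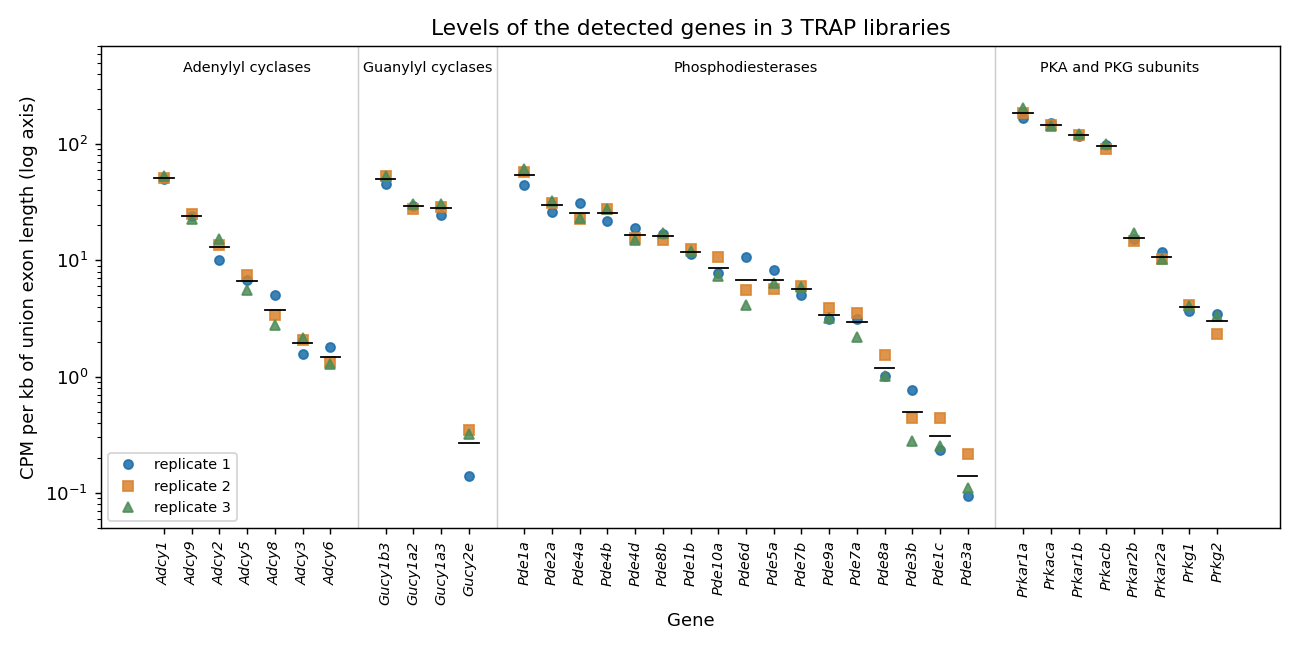
Level of each of the 36 detected genes in CPM per kb of union exon length (log axis), by library (points) with the mean of 3 libraries (black line), ordered by mean within 4 groups. The PKA genes Prkar1a, Prkaca, Prkar1b and Prkacb sit highest, between 91.5 and 206 CPM per kb in single libraries.

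The regulatory subunits of PKA were dominated by type I. Prkar1a, the ubiquitous type I subunit, had 719, 798 and 890.3 CPM in replicates 1, 2 and 3, and Prkar1b, the type I subunit best known from neurons, had 449.8, 461 and 465 CPM. Prkar1b was thus nearly level across libraries, while Prkar1a was lowest in replicate 1 and highest in replicate 3. The type II genes were lower in every library. Prkar2a, the widely expressed type II subunit, had 74.8, 65.2 and 65.1 CPM, and Prkar2b, the type II subunit abundant in brain and fat, had 55.9, 53.9 and 62.5 CPM. Per kb of exon, Prkar1a averaged 186 ± 19.9, Prkar1b 120.4 ± 2.12, Prkar2b 15.7 ± 1.23 and Prkar2a 10.7 ± 0.869 CPM per kb (SD, n = 3), and no neighbours in that order overlapped between libraries. On mm10 Prkar1a spans chr11:109649405-109669656 on the plus strand and Prkar1b chr5:139017306-139150001 on the minus strand. Type I genes held 92.03% ± 0.615 of the summed regulatory level per kb, and type II genes 7.97% ± 0.615.

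Each comparison of related genes used the log2 ratio of their levels per kb within a library, in a limma fit of all genes set against the other gene of the pair, with Benjamini-Hochberg adjustment over the 12098 genes tested. Prkar1b lay below Prkar1a by a log2 ratio of -0.62 ± 0.13 (SD, n = 3), in 3 of 3 libraries (limma adjusted p = 6.36e-06), and 99.0% of all genes tested were called below Prkar1a. Prkar1b exceeded Prkar2b by 2.94 ± 0.10 (limma adjusted p = 2.03e-23), and 16.9% of genes were called above Prkar2b. Prkar2b exceeded Prkar2a by 0.55 ± 0.18 (limma adjusted p = 0.000415), and 24.1% of genes were called above Prkar2a. That last order turned when counts were not divided by length (log2 ratio -0.25, limma adjusted p = 0.0559). In 10 of the 19 pairs tested limma took the spread wholly from the other genes. In most of these the pair's own SD was below the spread used. Where a pair's own SD is above the spread used, its adjusted p understates the error. That gap was widest for Pde4b over Pde4d, with an SD of 0.386 against 0.266 used, taken almost wholly from other genes. Each pair's SD over the libraries is given for that reason.

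Prkar1a was also the 1 gene of the set with a complete cyclic AMP response element, the site that CREB binds, in a RefSeq promoter window (250 bases before to 50 after an annotated start, build GRCm38.p6). Windows were found for 40 of the 51 genes, 80 windows in all. The palindrome TGACGTCA, on either strand, was in 2 overlapping windows of Prkar1a, 2.5% of the set's windows against 1.79% of all 32851 windows. Its core TGACGT, which overlaps the palindrome, was in 6 windows of 5 genes (Prkar1a, Pde4a, Pde4b, Adcy9 and Gucy2e), 7.50% of the windows of the set against 7.51% of all windows. A match is a description of the letters and not of binding. The window of the highest gene per kb and the one of Pde4b, the highest Pde4 gene by counts, are shown with every match to these elements, to the CCAAT box (CCAAT) and to the GC box (GGGCGG), on either strand, in capitals.
Prkar1a, chr11:109650699-109650998, plus strand: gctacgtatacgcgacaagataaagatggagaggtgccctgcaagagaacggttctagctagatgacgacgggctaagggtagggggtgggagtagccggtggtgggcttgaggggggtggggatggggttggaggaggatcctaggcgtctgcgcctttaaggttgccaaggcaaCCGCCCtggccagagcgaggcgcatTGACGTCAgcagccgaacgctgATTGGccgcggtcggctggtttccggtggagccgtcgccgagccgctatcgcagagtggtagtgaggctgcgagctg
Pde4b, chr4:102421305-102421604, plus strand: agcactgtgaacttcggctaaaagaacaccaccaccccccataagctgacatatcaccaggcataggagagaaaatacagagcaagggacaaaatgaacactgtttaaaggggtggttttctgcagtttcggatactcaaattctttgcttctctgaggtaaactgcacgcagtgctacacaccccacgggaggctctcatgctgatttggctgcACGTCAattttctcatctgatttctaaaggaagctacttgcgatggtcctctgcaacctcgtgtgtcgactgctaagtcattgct
The element begins 49 bases before the annotated start in the Prkar1a window, and the core begins 35 bases before it in the Pde4b window, where it is read on the other strand.

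The PKA catalytic genes were both abundant, and which of them ranked higher depended on the length used. Prkacb, the beta subunit gene, had 868, 803 and 873 CPM, and Prkaca, the alpha subunit gene, had 375, 364 and 354 CPM, so neither varied much between libraries. Per kb of union exon length Prkacb averaged 96.7 ± 4.48 and Prkaca 146 ± 4.27 CPM per kb (SD, n = 3), a log2 ratio of -0.60 ± 0.08 (limma adjusted p = 1.52e-05; 98.6% of genes were called below Prkaca). The annotated exons of Prkacb cover 8772 bases and its longest transcript 4347, against 2488 and 2276 bases for Prkaca. Per kb of longest transcript Prkacb was above Prkaca (log2 ratio 0.28, limma adjusted p = 0.00379), and by counts it was further above (log2 ratio 1.22, limma adjusted p = 2.18e-12). Summed per kb, the regulatory genes exceeded the catalytic ones in all 3 libraries, at 311, 331 and 356 CPM per kb against 249.7, 238 and 242 CPM per kb, a ratio of 1.37 ± 0.113 (SD, n = 3) that was 1.22 ± 0.0932 per kb of longest transcript.

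**Figure D2:**
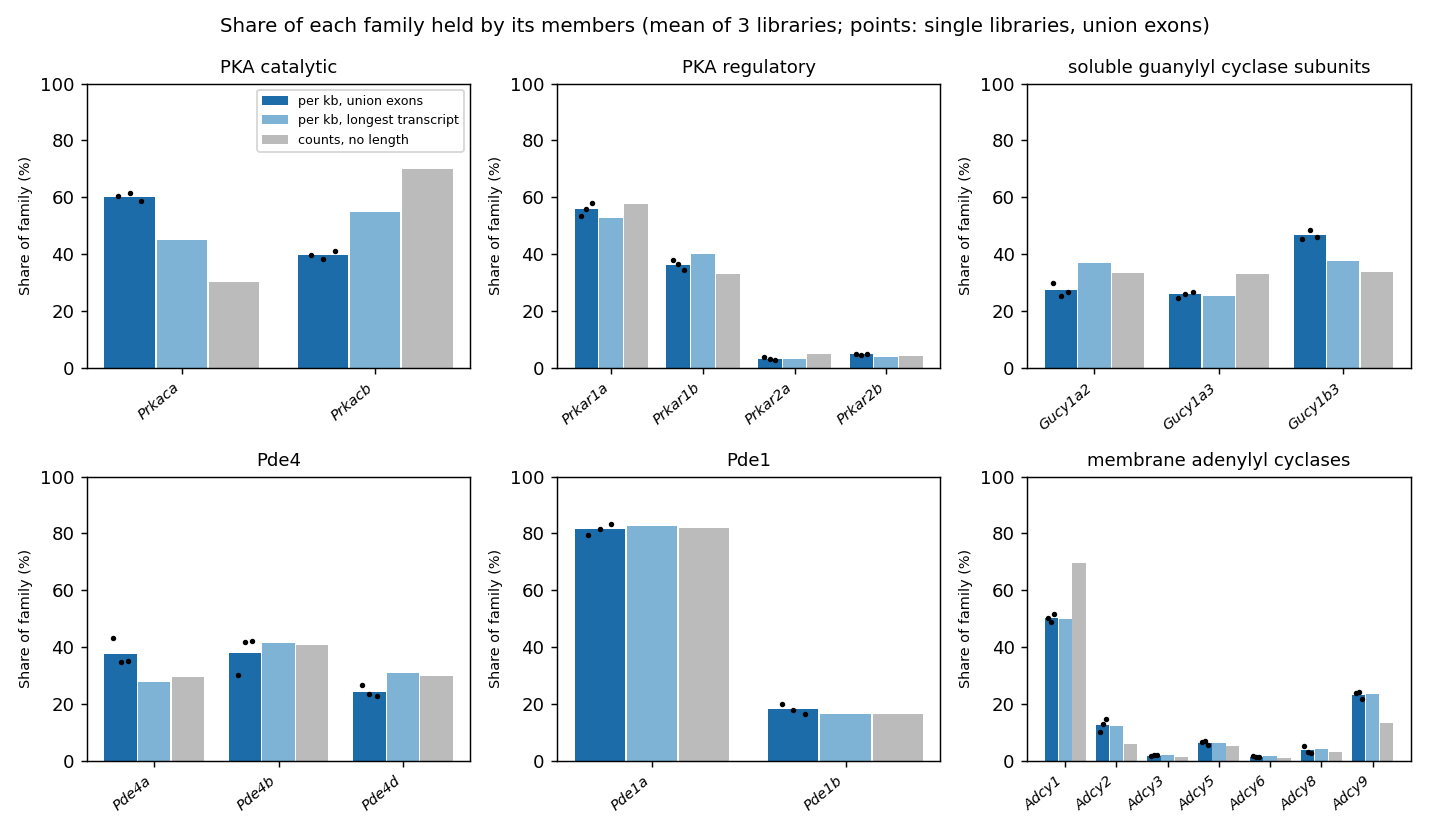
Share (%) of each family's summed level held by each gene, as the mean of 3 libraries under 3 length settings (bars), with single libraries as points for the union exon setting; genes under 1% are left out. Prkaca holds 60.2% of the catalytic level per kb of union exon and 30.1% by counts, while Pde1a stays at 81.4% to 82.6% of Pde1 under all 3 settings.

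Among the membrane adenylyl cyclases, Adcy1 was the highest gene in every library. Adcy1 (mm10 chr11:7063489-7178506, plus strand), a calcium- and calmodulin-stimulated cyclase, had 628, 638 and 672 CPM in replicates 1, 2 and 3, with no library apart from the others. Its mean of 51.6 ± 1.85 CPM per kb made up 50.3% ± 1.397 of the summed level per kb of Adcy1 to Adcy9 (SD, n = 3). Adcy9, a cyclase that responds little to forskolin, followed with 124, 131 and 117 CPM. Its 23.9 ± 1.30 CPM per kb was 23.3% ± 1.33 of the sum. Adcy2, which G protein beta-gamma subunits stimulate, had 42.7, 57.6 and 64.4 CPM, lowest in replicate 1, and averaged 13.04 ± 2.64 CPM per kb. Adcy5, a calcium-inhibited cyclase best known from striatum, had 48.8, 53.3 and 40.4 CPM and averaged 6.61 ± 0.914 CPM per kb.

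The other cyclases were lower. Adcy8, also calcium-stimulated, had 41.2, 27.4 and 22.7 CPM, highest in replicate 1. Adcy3, which marks neuronal cilia, had 9.80, 12.9 and 13.5 CPM, and Adcy6, calcium-inhibited like Adcy5, had 12.1, 9.16 and 8.64 CPM. In the order Adcy1, Adcy9, Adcy2, Adcy5, Adcy8, Adcy3, Adcy6 per kb of exon, Adcy3 and Adcy6 were the only neighbours whose libraries overlapped, and the order was the same per kb of longest transcript. The calcium-stimulated genes Adcy1, Adcy3 and Adcy8 together held 55.8% ± 1.45 of the summed level per kb, Adcy2, Adcy4 and Adcy7 held 12.98% ± 2.23, and Adcy5 and Adcy6 held 7.89% ± 1.08 (SD, n = 3). Of the exon bases of Adcy3, 22.1% overlap those of Cenpo on the other strand, and without a stated strand setting the reads of the 2 genes cannot be told apart there.

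All 5 cyclase pairs passed the test with the same sign in 3 of 3 libraries. Adcy1 exceeded Adcy8 by 3.83 ± 0.48 on the log2 scale, or 14.2-fold, and 43.3% of all genes were called above Adcy8. It exceeded Adcy5 by 2.97 ± 0.25 (33.5% of genes were called above Adcy5) and Adcy2 by 2.002 ± 0.26 (18.0% above Adcy2). Adcy5 exceeded Adcy6 by 2.16 ± 0.26 (69.6% above Adcy6), and Adcy9 exceeded Adcy3 by 3.62 ± 0.27 (63.1% above Adcy3). The largest adjusted p of the 5 by limma was 3.71e-21.

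Adcy7, best known from immune cells, had 3.24, 0.591 and 2.41 CPM, and Adcy10, the soluble bicarbonate-sensitive cyclase, had 0.597, 0.665 and 1.63 CPM, so neither met the detection rule. Adcy4 had no count in any library (0 counts). In any single library, a level of up to 0.213 to 0.256 CPM, or 3 counts, would still be compatible with 0 counts by counting error alone. The limit from all 3 libraries together is lower and was not computed.

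The subunits of soluble guanylyl cyclase, the nitric oxide receptor, came at nearly equal counts. The alpha subunit gene Gucy1a3 had 172, 199 and 214 CPM, its partner beta subunit gene Gucy1b3 had 178, 209.5 and 207 CPM, and the other alpha gene, Gucy1a2, had 197, 185 and 203 CPM. Gucy1a3 and Gucy1b3 were lowest in replicate 1, and Gucy1a2 was not. Gucy1a3 over Gucy1b3 gave a log2 ratio of -0.03 by counts (limma adjusted p = 0.793). Divided by union exon lengths of 6968 bases for Gucy1a3 and 3927 for Gucy1b3, the ratio was -0.85 ± 0.06 (SD, n = 3), negative in 3 of 3 libraries (limma adjusted p = 2.72e-06), with 93.6% of genes called below Gucy1b3. Gucy1a3 and Gucy1a2 were not told apart by the test per kb of union exon (log2 ratio -0.07 ± 0.17, from -0.27 to 0.04 in single libraries, limma adjusted p = 0.476), and Gucy1a3 lay below Gucy1a2 per kb of longest transcript (log2 ratio -0.55, limma adjusted p = 4.51e-05). Per kb, Gucy1b3 held 46.8% ± 1.63 of the soluble cyclase level, Gucy1a2 27.3% ± 2.29 and Gucy1a3 25.9% ± 1.08. The fourth gene, Gucy1b2, had 0.0852, 0.222 and 0.567 CPM and was not detected.

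Gucy1a3 and Gucy1b3 are also neighbours in the genome. On mm10, Gucy1a3 (Gucy1a1 in the annotation used) spans chr3:82092427-82145789 and Gucy1b3 (Gucy1b1) spans chr3:82032006-82074689, both on the minus strand, 17737 bases apart with no protein-coding gene between them. No other genes of the set were as close. Their promoter windows share a GGGCGG motif, present in 35.7% of all windows and 42.5% of the windows of the set, and differ in CCAAT, which is in 37.4% of all windows. They are shown because the pair came at like counts and lies side by side, with the same motifs in capitals as above.
Gucy1a3, chr3:82145601-82145900, minus strand: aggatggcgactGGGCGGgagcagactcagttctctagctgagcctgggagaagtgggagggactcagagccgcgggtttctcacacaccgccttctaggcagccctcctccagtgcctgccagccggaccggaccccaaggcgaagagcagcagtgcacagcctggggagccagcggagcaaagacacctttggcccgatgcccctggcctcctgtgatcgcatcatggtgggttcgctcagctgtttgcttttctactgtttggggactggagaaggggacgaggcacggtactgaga
Gucy1b3, chr3:82074662-82074961, minus strand: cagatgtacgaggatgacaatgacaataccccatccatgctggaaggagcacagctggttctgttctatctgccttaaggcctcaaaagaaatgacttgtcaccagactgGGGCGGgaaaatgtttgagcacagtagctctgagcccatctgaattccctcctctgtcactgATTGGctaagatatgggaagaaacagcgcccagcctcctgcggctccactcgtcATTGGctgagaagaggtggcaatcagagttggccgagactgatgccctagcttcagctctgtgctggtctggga
The Gucy1b3 window holds 2 CCAAT matches, both as ATTGG on the strand shown, and the Gucy1a3 window none.

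Soluble guanylyl cyclase is also a gene product of vascular smooth muscle and pericytes. Per kb of exon Gucy1a3 was at 27.98 ± 3.08 and Gucy1b3 at 50.5 ± 4.52 CPM per kb, against 1.81 ± 0.495 CPM per kb for Acta2, the highest of the 5 mural markers (SD, n = 3). Of the receptor guanylyl cyclases with a Gucy symbol, only Gucy2e, a retinal cyclase gene in mouse, met the detection rule. It had 1.28, 3.18 and 2.98 CPM. The natriuretic peptide receptor Npr2, outside the set by its symbol, had 5.88, 8.42 and 8.71 CPM. Gucy2g, which marks an olfactory subsystem in mouse, had 6.39, 0.812 and 4.04 CPM, the widest relative range of the 37 genes past the count filter. The retinal Gucy2f and the intestinal guanylin receptor Gucy2c were under 1 CPM on average, and Gucy2d had no count in any library.

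Among the phosphodiesterases, Pde1a (mm10 chr2:79834453-80129458, minus strand), a calcium- and calmodulin-stimulated enzyme that hydrolyses both cyclic nucleotides, was the highest gene per kb of exon in every library. It had 269, 343 and 367 CPM, lowest in replicate 1, and averaged 54.3 ± 8.45 CPM per kb. Pde2a, which cyclic GMP stimulates, had 160.3, 193 and 200.8 CPM, also lowest in replicate 1, and averaged 30.04 ± 3.49 CPM per kb. In the annotation used, 64.3% of the exon bases of Pde2a are shared with Gm45837, which has no row in the tables. Pde1b had 60.9, 67.3 and 64.97 CPM, and Pde1c 4.69, 8.94 and 5.10 CPM. The log2 ratio of Pde1a over Pde1b was 2.17 ± 0.18 per kb (limma adjusted p = 3.87e-09, with 22.2% of genes above Pde1b) and that over Pde1c 7.46 ± 0.45 (limma adjusted p = 6.01e-93, with 93.1% of genes above Pde1c), each in 3 of 3 libraries.

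Pde4 genes, which encode the rolipram-sensitive, cyclic AMP-specific enzymes, formed the other large group. Pde4b had 229, 290.3 and 293 CPM, lowest in replicate 1. Pde4a had 239, 176 and 177 CPM and Pde4d 229.8, 186 and 182 CPM, both highest in replicate 1. Pde4c had no count in any library. Per kb of union exon, Pde4a at 25.8 ± 4.70 and Pde4b at 25.6 ± 3.39 CPM per kb overlapped between libraries, and both were above Pde4d at 16.6 ± 2.22 (SD, n = 3). The log2 ratio of Pde4b over Pde4d was 0.63 ± 0.39, ranging from 0.18 in replicate 1 to 0.87 in replicate 3 (limma adjusted p = 5.27e-05), and that of Pde4a over Pde4d was 0.63 ± 0.07 (limma adjusted p = 5.19e-05), where 15.5% of genes were called above Pde4d. The Pde4a order over Pde4d turned per kb of longest transcript (log2 ratio -0.17, limma adjusted p = 0.287) and by counts (log2 ratio -0.02, limma adjusted p = 0.897).

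The further cyclic AMP-specific families each had 1 leading gene. Pde8b had 99.2, 88.0 and 101 CPM and Pde8a 4.09, 6.20 and 4.11 CPM, a log2 ratio of 3.76 ± 0.44 per kb (limma adjusted p = 1.55e-49, with 72.2% of genes above Pde8a). Pde7b had 62.2, 74.5 and 73.8 CPM and Pde7a 24.1, 27.3 and 17.1 CPM, a log2 ratio of 0.95 ± 0.40 per kb (limma adjusted p = 0.00113, with 50.6% of genes above Pde7a). The Pde7 call was lost without replicate 1 (log2 ratio 1.09, limma adjusted p = 0.0631). Pde3b, a cyclic GMP-inhibited enzyme, had 6.99, 3.99 and 2.55 CPM, and Pde3a 1.19, 2.73 and 1.42 CPM.

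Pde10a, a dual-specificity enzyme typical of striatal projection neurons, had 101, 137 and 94.7 CPM, highest in replicate 2. The summed level of the 7 striatal markers, which include Ppp1r1b, was highest in replicate 2 too, at 89.8, 124 and 86.2 CPM in replicates 1, 2 and 3. Of these markers 5 were detected, and Adora2a and Gpr6 were not. The markers did not move as one: Rgs9, Adora2a and Gpr6 were highest in replicate 1. Adcy5 was also highest in replicate 2, and the part of striatal RNA in these levels was not tested. Per kb, Pde10a was at 8.61 ± 1.76 CPM per kb, against 0.497 ± 0.391 for Adora2a, the lowest striatal marker, and 8.15 ± 1.06 for Ppp1r1b, the highest (SD, n = 3). Per kb, the log2 ratio of Pde2a over Pde10a was 1.81 ± 0.30 (limma adjusted p = 2.27e-16), and 26.3% of genes were called above Pde10a.

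Cyclic GMP-specific enzymes were the smallest group. Pde5a, the target of sildenafil, had 81.9, 56.3 and 63.1 CPM, highest in replicate 1, and averaged 6.83 ± 1.35 CPM per kb, against 1.81 ± 0.495 for the highest mural marker. Pde9a, a high-affinity cyclic GMP enzyme, had 11.2, 13.8 and 11.3 CPM. Of the 6 Pde6 genes, known from photoreceptors, only Pde6d was detected, at 23.4, 12.2 and 9.07 CPM, highest in replicate 1. It encodes a prenyl-binding chaperone and not a catalytic subunit. Pde6a had 22 counts in replicate 1 and 0 in the other libraries, and Pde6b, Pde6c, Pde6g and Pde6h each stayed at 2.07 CPM or less in every library. Pde11a, a dual-specificity enzyme, had 0.170, 0.960 and 1.98 CPM. Summed per kb over the catalytic genes, dual-specificity enzymes held 50.2% ± 4.22, cyclic AMP-specific ones 44.7% ± 3.49 and cyclic GMP-specific ones 5.12% ± 0.732 (SD, n = 3). In replicate 1 the order was the other way, with 45.3% for dual-specificity enzymes and 48.7% for cyclic AMP-specific ones. It was the other way on average per kb of longest transcript too, at 42.1% and 53.7%.

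The cyclic GMP kinases were low beside PKA. Prkg1, the soluble kinase of smooth muscle and some neurons, had 40.1, 45.3 and 43.7 CPM, and Prkg2, the membrane-anchored kinase, had 18.4, 12.5 and 17.8 CPM. Prkg2 was lower in all 3 libraries per kb, but the pair did not pass the test (log2 ratio -0.40 ± 0.38, limma adjusted p = 0.0615), and it passed per kb of longest transcript (log2 ratio -0.93, limma adjusted p = 0.000869) and without replicate 1 (log2 ratio -0.55, limma adjusted p = 0.0219). The sum of both was 6.99 ± 0.436 CPM per kb, against 243 ± 6.01 for the PKA catalytic genes.

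**Figure D3:**
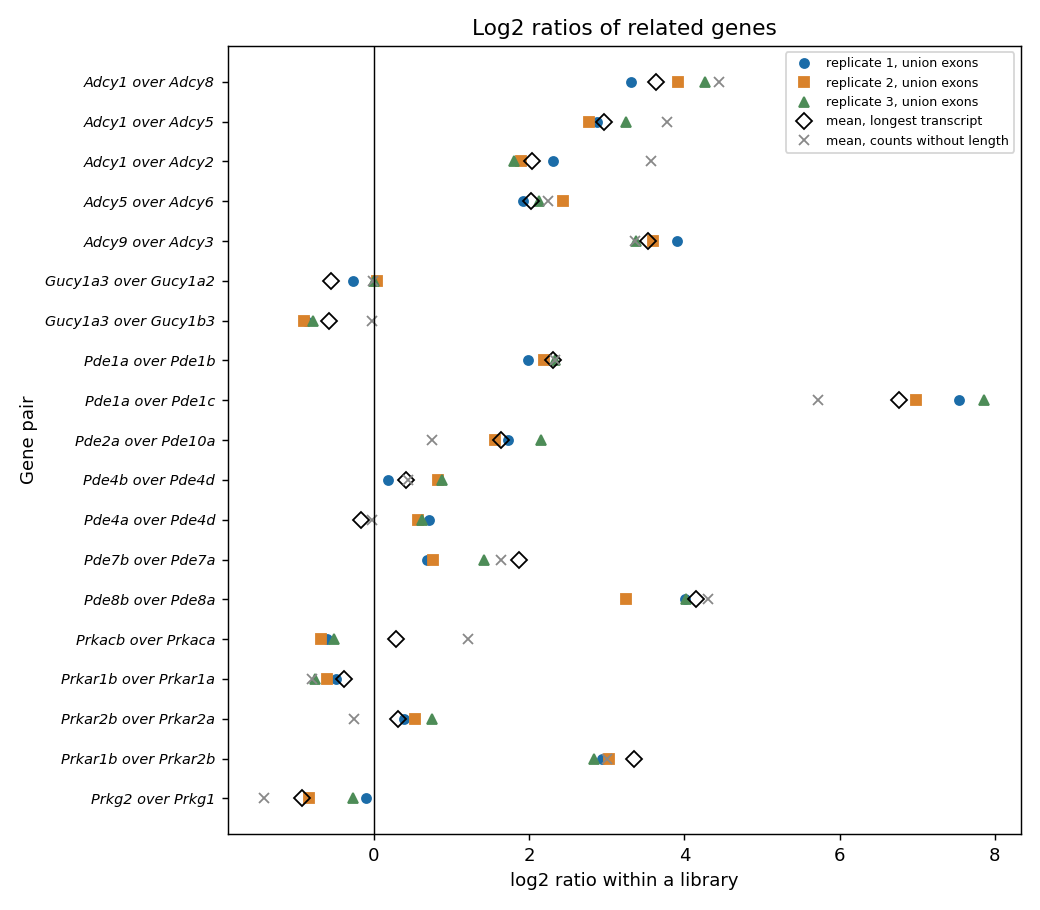
Log2 ratio of the first gene over the other within each library, per kb of union exon (coloured points), with the mean ratio per kb of longest transcript (diamonds) and by counts (crosses), for 19 pairs. Of these, 17 passed the limma test per kb of union exon; the diamonds or crosses lie across 0 from the coloured points for Prkacb over Prkaca, Pde4a over Pde4d and Prkar2b over Prkar2a.

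Between libraries, no gene of the set passed the test for excess spread. Of the 37 that passed the count filter, 0 were called more variable than genes of the same level by edgeR's quasi-dispersion test (smallest adjusted p = 0.607), against 11 of 12509 genes or 0.0879%. At an unadjusted p under 0.05 there were 5 (Gucy2g, Pde6d, Adcy8, Pde10a and Pde4a), against 5.72% of all genes. On the log2 CPM scale with a prior count of 2, which shrinks the ratios of low genes, the median ratio of the highest to the lowest library was 1.28-fold over the 37 genes and 1.33-fold over all genes that passed, and 5 genes exceeded 2-fold. On that scale Gucy2g ranged 6.79-fold, Pde3b 2.64-fold, Pde6d 2.56-fold, Gucy2e 2.33-fold and Pde3a 2.14-fold, and all 5 were at 23.4 CPM or less in every library.

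Replicate 1 had the highest level of the nuclear RNA Malat1, at 8782 CPM, against 2578 and 1801 CPM in replicates 2 and 3. In that library 17 of the 37 genes were above the mean of the other libraries and 20 below, with a median log2 difference of -0.05, against a median of -0.000244 over all genes with 49.98% above. Adcy8, Pde6d, Pde3b, Pde5a, Pde4a and Pde4d were among the genes highest in replicate 1. Adcy2, Pde1a, Pde2a, Pde4b, Gucy1a3 and Prkar1a were among those lowest in it. Neither list is complete. Some summed markers moved with that library as well. Replicates 1, 2 and 3 held 5960, 7253 and 7985 CPM of excitatory markers, 1645, 1429 and 1483 CPM of inhibitory ones, and 111, 187 and 163 CPM of astrocyte ones. Camk2a, at 5506, 6694 and 7377 CPM, made up most of the excitatory sum. Gad2 (780, 739 and 782 CPM) was not raised in replicate 1. Gfap (14.8, 11.8 and 11.5 CPM) and Aldh1l1 (9.80, 5.46 and 7.08 CPM) went against the astrocyte sum. Microglial sums (33.2, 53.7 and 50.9 CPM) and mural and smooth muscle ones (12.9, 24.1 and 21.1 CPM) were lowest in replicate 1. Of these markers P2ry12, Tyrobp and Kcnj8 were not lowest in it. Oligodendrocyte sums (439, 511 and 382 CPM) and endothelial ones (7.93, 10.3 and 5.88 CPM) did not set replicate 1 apart. The part of the library or of these cell types in the differences was not tested.

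**Figure D4:**
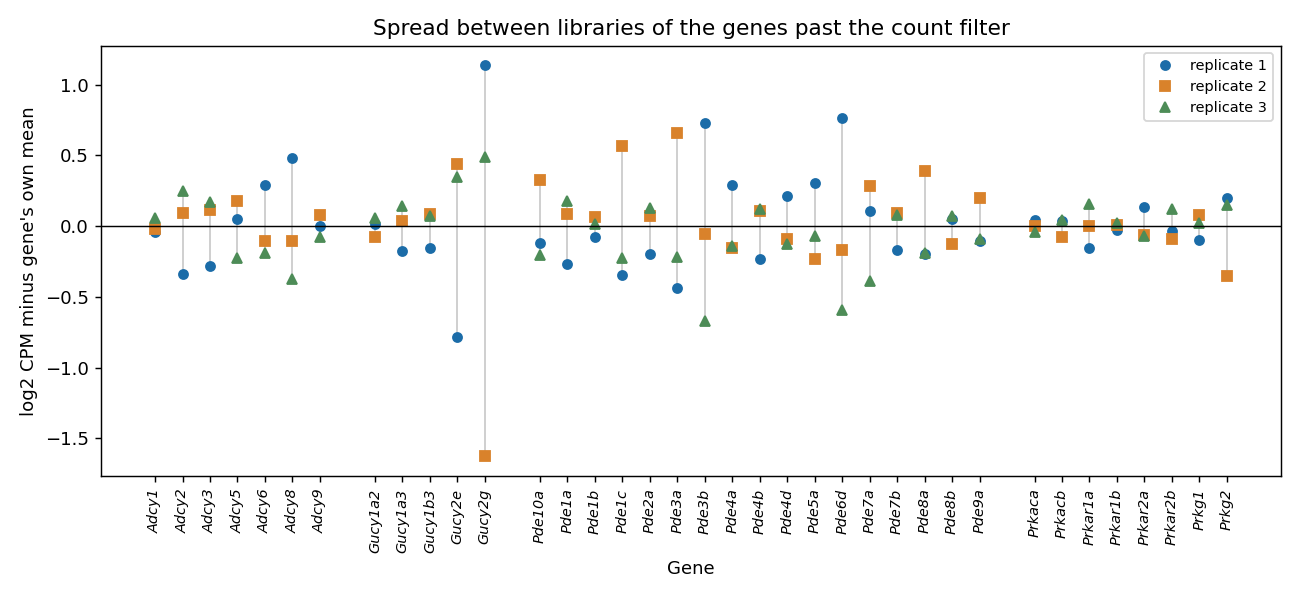
Log2 CPM of each of the 37 genes past the count filter in each library, minus the gene's own mean over 3 libraries. Gucy2g, with 0.812 CPM in replicate 2, spreads most, and Prkar1b, at 449.8 to 465 CPM, is among the tightest.

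The other genes of the pathway were taken from 8 lists of 53 genes, all of them in the tables. Of these 35 were detected, against 37.3% of all rows and 56.4% of the rows matched to a protein-coding gene. All 7 G protein alpha genes were detected. By counts they ran from Gnai3 at 25.2 ± 3.94 CPM to Gnas, which couples receptors to cyclase activation, at 3101 ± 251 CPM. Per kb of union exon the highest was Gnai1, an inhibitory alpha subunit, at 317 ± 14.1 CPM per kb against 277 ± 22.4 for Gnas (SD, n = 3). By counts Gnai1 was at 993 ± 44.2 CPM, below Gnas, so the order of these genes depended on the division by length. Of the PKA inhibitor genes, Pkia was at 182, 159.5 and 197 CPM and 48.2 ± 5.02 CPM per kb, below both catalytic genes per kb, while Pkib and Pkig averaged 0.960 ± 0.334 and 1.59 ± 0.174 CPM per kb. Of the 14 PKA anchoring proteins 10 were detected, led by Akap11 at 336 ± 7.79 CPM by counts and by Akap5, the postsynaptic anchor, at 36.98 ± 3.43 CPM per kb. Of the detected ones Akap7 had the fewest counts, at 10.1 ± 1.51 CPM, and Akap13 the lowest level per kb, at 1.505 ± 0.0415 CPM per kb. Akap2 and Akap4 had no count in any library.

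Other targets of cyclic AMP were uneven. Rapgef4, which encodes the exchange factor Epac2, had 170.2, 169.9 and 162 CPM, and Rapgef3, which encodes Epac1, averaged 4.57 ± 1.55 CPM. Rapgef2, at 267 ± 21.3 CPM, had the most counts of that list, and Rapgef4 the highest level per kb, at 25.1 ± 0.696 CPM per kb, and the Popeye domain genes Popdc2, Popdc3 and Bves were not detected. None of the 6 cyclic nucleotide-gated channel genes was detected, and none had more than 4 counts over the 3 libraries. All 6 CREB family and coactivator genes were detected, with Creb1 at 49.8, 59.2 and 59.5 CPM, the coactivator Crtc1 highest at 15.9 ± 1.22 CPM per kb and Crem lowest at 1.08 ± 0.372 CPM per kb. Ppp1r1b, the phosphatase inhibitor DARPP-32, had 20.3, 25.9 and 25.4 CPM, and Ppp1r1a 21.7, 24.1 and 23.4 CPM.

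On the side of cyclic GMP input, 4 of 9 genes were detected. Nos1, the neuronal nitric oxide synthase, had 18.0, 28.3 and 23.8 CPM and the most counts of that list, and Nppc, which encodes C-type natriuretic peptide, had the fewest of the detected genes, at 2.50 ± 0.643 CPM. Per kb the order turned, with Nppc highest at 2.40 ± 0.617 CPM per kb and Npr3 lowest of the detected genes at 0.713 ± 0.264 (SD, n = 3). Its receptor Npr2 was at 7.67 ± 1.56 CPM and the clearance receptor Npr3 at 6.70 ± 2.48, while the endothelial synthase Nos3 averaged 0.313 ± 0.210 CPM. Per kb of exon Nos1 was at 2.09 ± 0.463 CPM per kb, below all 3 detected subunits of its target enzyme.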

How the data were processed

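Each library came as 1 deposited table of raw counts by gene symbol. The submitters' processing notes name STAR 2.0.0e, HTSeq and the build mm10. Counting mode, strand setting and gene annotation were not given in those sources, and reads of overlapping genes cannot be separated. Genes took 61.9% to 70.7% of tallied reads, and rows outside any feature, ambiguous (2.37% to 2.65%) or not uniquely aligned were left out. The 3 immunopurified libraries were grouped and numbered by their titles. Chi-square tests between libraries gave 12.3 to 28.5 per degree of freedom, so none repeats another.

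CPM used TMM-scaled library sizes (edgeR 4.0.16, R 4.3.3). GENCODE M21 (GRCm38, the same assembly as mm10) gave gene positions and exon lengths. It matched 23155 rows by current symbol, 737 through an older one, and all 51 genes of the set. A union length covers all annotated exons and need not be that of the transcript expressed here. Pairs were tested with intercept-only limma 3.58.1 fits (trend, robust, two-sided) of log2 CPM per kb with a prior count of 2 over genes past filterByExpr (minimum count 10), with Benjamini-Hochberg adjustment at 0.05. Each such fit compares every gene with 1 gene, so its rows share that gene's error. Variation between libraries was tested with edgeR's quasi-likelihood fit across all genes. Both were tested on simulated data, but the outcome is not given here and no conclusion is drawn from it. The members, pairs and lists were chosen with earlier results of these data known. All 51 genes are accounted for, those detected with their values; of the pathway lists the highest and lowest detected genes and Nos1, Pkia, Rapgef4, Ppp1r1b and Creb1 were named by rule, and other list genes were named after their values were seen. DESeq2 1.42.0 size factors were an alternative.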

Additional observations from a re-analysis of the deposited data

How the results depend on the processing

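No paired analysis was possible because there is 1 group. The count of pairs called, 17 of 19, was 15 by counts, 18 per kb of longest transcript, and 17 with no filter on low counts, with limma without trend and robust moderation, with a prior count of 0.5 and without any 1 replicate. The count of genes of the set detected was 36 with plain library totals, 39 at 0.5 CPM and 31 at 5 CPM. With no filter, 66 genes in place of 11 were called as varying between libraries, and without replicate 1, 3 genes of the set in place of 5 passed the unadjusted threshold; the causes were not tested. Dividing by another length changed several orders. By counts, Gucy1a3 over Gucy1b3 no longer passed (log2 -0.026), Pde4a over Pde4d (-0.021), Prkacb over Prkaca (1.22) and Prkar2b over Prkar2a (-0.25) turned, and Prkg2 over Prkg1 passed (-1.42). Per kb of longest transcript, Pde4a over Pde4d (-0.17) and Prkacb over Prkaca (0.28) turned, and Gucy1a3 over Gucy1a2 (-0.55) and Prkg2 over Prkg1 (-0.93) passed. Shares by counts and per kb of longest transcript were 33.7% and 37.6% for Gucy1b3, 30.1% and 45.1% for Prkaca, 72.7% and 65.5% for Prkg1, 19.8% and 21.2% for Pde1a among all catalytic phosphodiesterases (25.7% per kb of union exon), 52.5% and 53.7% for cyclic AMP-specific enzymes, and 90.9% and 92.9% for type I regulatory genes. Adcy1 held 69.7% by counts, and Prkar1a 52.6% per kb of longest transcript. Without 1 replicate each, Gucy1a3 over Gucy1a2 ranged from -0.13 to 0.024 and turned without replicate 1, Pde7b over Pde7a from 0.72 to 1.09 and lost its call without replicate 1, Prkg2 over Prkg1 from -0.55 to -0.19 and passed without replicate 1, and the median difference of replicate 1 from the others from -0.13 to -0.023. Counts under about 3 in a single library, 0.213 to 0.256 CPM, limit what can be said from that library of the genes at 0. The lower limit from all 3 libraries together was not computed.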
